A study of Glycine max with 18 samples.

Results

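Wild-type Williams 82 (Ws82) soybean leaves were compared between the subjective dark phase and the subjective light phase of 1 circadian cycle in constant light. The subjective dark phase is made of the 9 RNA-seq libraries at ZT36, ZT40 and ZT44, and the subjective light phase of the 9 libraries at ZT24, ZT28 and ZT32, so that all 18 libraries of the series were used. Each time point has 3 biological replicates (L, M and R) of the first tri-foliate leaf, sampled every 4 h over 20 h, and the labels count the same times from 0 h. All plants shared the genotype and the treatment, and no library was taken in darkness. According to the labels, seedlings grew for 18 d in short days with 8 h of light at 24 °C and 16 h of dark at 22 °C, and then stood in constant light at 25 °C for 1 day before sampling, while the design text of the series gives 12 h of light and 12 h of dark for 14 d. ZT24 to ZT32 are taken as light and ZT36 to ZT44 as dark, as the paper draws them. Under the short day, ZT32 lies at the time of lights-off. The dark phase is also the later part of the sampling, and phase and time spent in constant light cannot be told apart in a single cycle.

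The plant circadian clock is a set of transcription factors that repress and activate each other in sequence over the day. In Arabidopsis, LHY and related MYB factors act around dawn, the PRR proteins follow one another from morning to evening, and TOC1 and the evening complex, of which LUX is the DNA-binding member, act around and after dusk. Constant light removes the daily light signal, and a rhythm that persists in it is called free-running. Whether the differences below would recur in a further cycle was not tested. Photosynthesis genes such as those for the light-harvesting chlorophyll a/b-binding (CAB) proteins are well-known outputs of this clock.

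The libraries hold 3.11 to 7.24 Gb of aligned sequence in the dark phase and 5.17 to 7.13 Gb in the light phase, with the least depth at ZT44 (3.11 to 3.53 Gb). Between 17644 and 22227 genes reached 1 TPM (a length-normalised share of the transcripts) in the dark-phase libraries, against 14263 to 21044 in the light-phase libraries. The library ZT32 R of the light phase stands apart, with 227701 unstranded assembled loci and at most 35008 in any of the 17 others. Its annotated genes summed to 51.3% of the TPM held by its assembled loci, against 56.2% to 78.6% in the 17 others. The main counts and descriptions over many genes are therefore also given without it, and values not marked so include it. Without it, all 18 genes named below kept their direction and call, and their differences moved by at most 0.17 on the log2 scale. The identity of the tissue was not checked against cell type markers, because the files give identifiers without gene names.

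More genes were higher than lower in the dark phase. Of 24620 genes with a mean of at least 1 TPM at any time point, 13144 were higher in the dark phase (53.4% of the genes tested) and 2633 were lower (10.7%), at an adjusted p of at most 0.05 in limma's contrast of the time-point means of log2(TPM + 1). The median difference was 0.60 on the log2 scale for the genes called higher (0.56 without ZT32 R). It was -0.66 for the genes called lower (-0.64 without ZT32 R). A difference of at least 1 was reached by 1974 of the genes called higher and by 683 of those called lower, and a difference of at least 3 by 11 and 34. The largest differences were thus on the lower side, although fewer genes fell. The median difference of all tested genes was 0.35, higher in the dark phase (0.30 without ZT32 R). The median of log2(TPM + 1) over these genes was 1.54 to 2.11 in the dark-phase libraries and 1.03 to 1.86 in the light-phase libraries, the lowest being ZT32 R.

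This balance depended on how the libraries were scaled, although some scalings changed it little. With quantile normalization, which gives every library the same distribution of values, 6703 genes were higher and 5510 lower in the dark phase, and the median difference was 0.04. The share of calls that were higher was 54.9% with quantile normalization and 83.3% with TPM as deposited (79.7% without ZT32 R). Of the 13144 genes called higher, 6637 remained called higher with quantile normalization, and of the 2633 called lower, 2604 remained called lower. No gene was called in opposite directions by these fits. Rescaling the TPM without the 100 most abundant genes gave 11729 higher and 4405 lower genes (72.7% of calls higher). Rescaling over all annotated genes gave 14470 higher and 3114 lower (82.3%), and FPKM gave 13569 and 2826. In each of these fits another set of genes passed the filter. Single differences below are given as fitted, and 0.35 less on the log2 scale is their value relative to the median gene. The median varied with level, being 0.49 between 5 and 20 TPM and -0.10 at 100 TPM or more. Values relative to it are therefore not corrected for scaling. In bulk leaf samples, fewer cells of a type and less RNA per cell cannot be told apart.

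**Figure D1:**
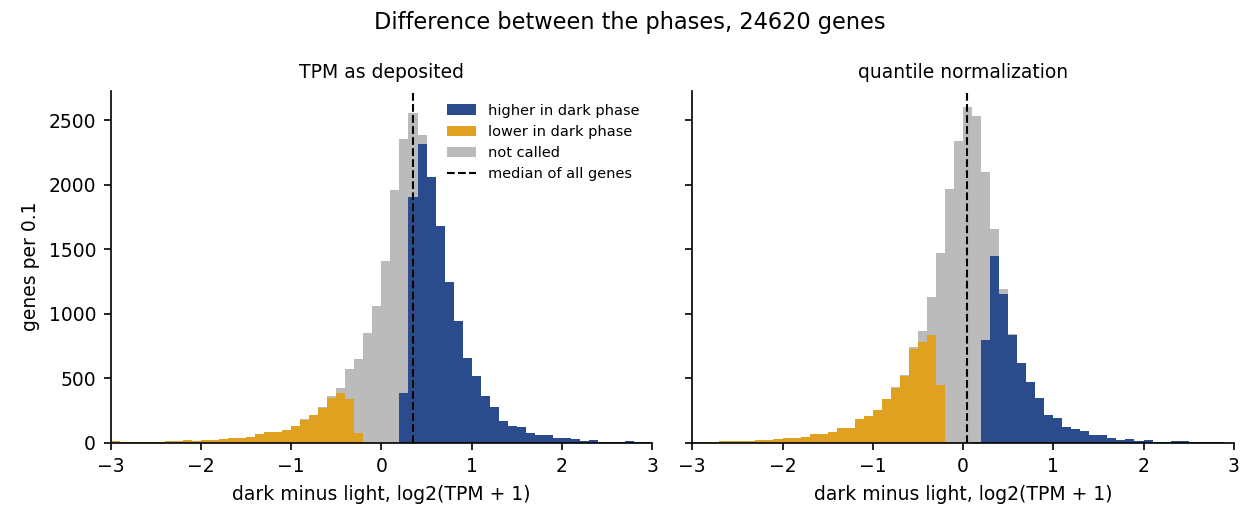
Number of genes (y axis, per 0.1) by dark minus light difference in log2(TPM + 1) (x axis), for TPM as deposited on the left and quantile normalization on the right. Colours show genes called higher, called lower or not called at an adjusted p of 0.05, and the dashed line is the median of all 24620 genes, 0.35 on the left and 0.04 on the right. Differences beyond 3 in either direction are not drawn.

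The calls rest on the spread between replicates within time points, which asks whether the 6 sampled times differ, not whether any other dark and light times would. When the 6 time-point means were the units, 3 against 3, 440 genes were called higher (1.79%) and 135 lower (0.548%), all of them among the calls above. At an unadjusted p under 0.05 this fit had 7340 genes. An exact permutation test of 3 against 3 time-point means cannot go below p = 0.10 for any single gene. ZT32 lies at lights-off of the short day, on the border of the phases. With ZT32 counted as dark, 6158 genes were higher and 2807 lower. Of these, 5674 and 1859 were called in the same direction above, while 64 genes turned to lower and 34 to higher. Without ZT32 R, 12357 genes were higher and 3144 lower, and 12237 and 2551 of them were called in the same direction with all libraries.

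A stricter description asks for genes whose 3 dark means all lie above, or all below, the 3 light means. All 3 dark means were above in 7826 genes (31.8% of those tested) and below in 988 (4.01%). Of these, 7494 and 937 were also past the contrast. The gap between the nearest dark and light means was small for most, with a median of 0.19 for the genes above and 0.22 for those below, and it reached at least 1 in 155 and 85 genes. All 9 dark libraries lay above all 9 light libraries in 996 genes (4.05%), and below them in 192 (0.78%). Without ZT32 R, the means were apart in 7308 genes above and 1231 below, of which 7218 and 941 were apart with all libraries. With quantile normalization, 3767 genes were apart above and 2560 below, of which 3672 and 970 were apart with TPM as deposited.

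The separated genes did not share a single profile. Among the 7826 genes whose dark means were all above, the highest mean fell at ZT36 in 3619, at ZT40 in 3534 and at ZT44 in 673. Their lowest mean fell at ZT32 in 4901, or 62.6%, while ZT32 was the lowest time point of 44.8% of all tested genes. Without ZT32 R, it was the lowest in 45.1% of the 7308 genes above and in 29.8% of all tested genes. Among the 988 genes whose dark means were all below, the highest mean fell at ZT24 in 274, at ZT28 in 491 and at ZT32 in 223, and the lowest at ZT36 in 436, at ZT40 in 157 and at ZT44 in 395. Means that moved in 1 direction over all 6 time points were found in 14 of the genes above and 15 of those below. Most orders of 6 means that keep the phases apart include a turn, and small noise adds turns. These low counts are therefore only a description. Without ZT32 R, the highest mean fell at ZT24 in 331, at ZT28 in 471 and at ZT32 in 429 of the 1231 genes below, and 13 of the genes above and 14 of those below moved in 1 direction.

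**Figure D2:**
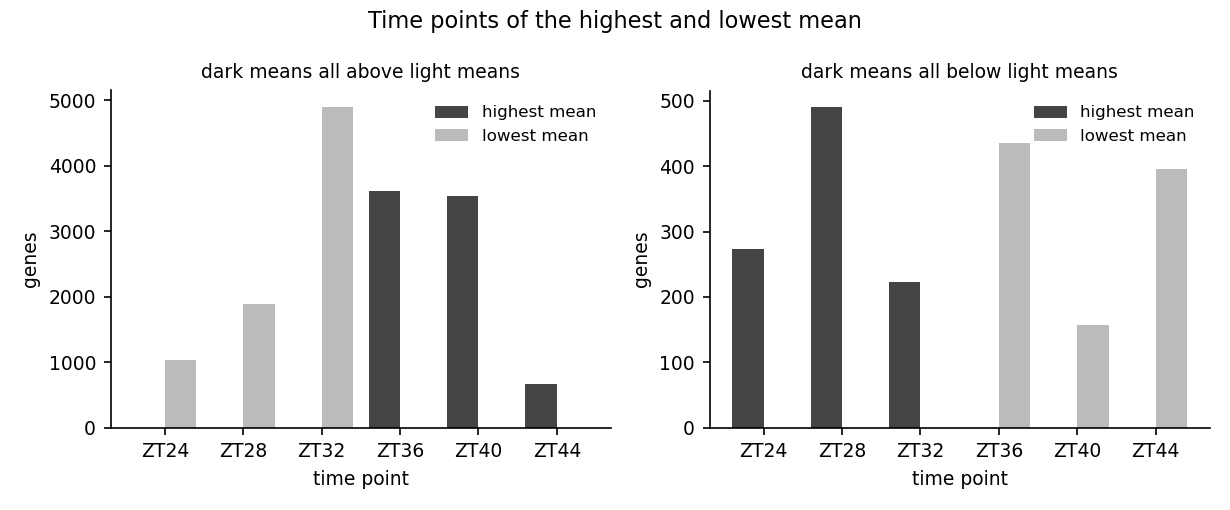
Number of genes (y axis) by the time point of their highest and lowest mean of log2(TPM + 1) (x axis), for 7826 genes with all dark means above (left) and 988 with all dark means below the light means (right). The genes above were mostly highest at ZT36 or ZT40 and lowest at ZT32, and the genes below were most often highest at ZT28. ZT32 R is included.

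The genes with lower dark means were fewer but took a visible part of the transcripts. They held 1.49% to 3.28% of the annotated gene TPM in the dark-phase libraries (median 1.81%), against 4.53% to 9.85% in the light-phase libraries (median 6.79%). The genes with higher dark means held 17.5% to 25.5% in the dark phase (median 22.1%), against 7.87% to 17.0% in the light phase (median 14.0%). These shares describe genes chosen by the same values and are not a test. ZT32 R was the lowest library of the light phase in both sets, and the ZT44 libraries were the highest of the dark phase among the genes with lower dark means. Without ZT32 R, the genes then apart below held 3.38% to 7.01% in the dark phase (median 3.90%), against 9.67% to 16.1% in the light phase (median 11.8%), and those apart above 17.1% to 25.1% (median 21.5%), against 12.9% to 16.8% (median 14.0%).

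**Figure D3:**
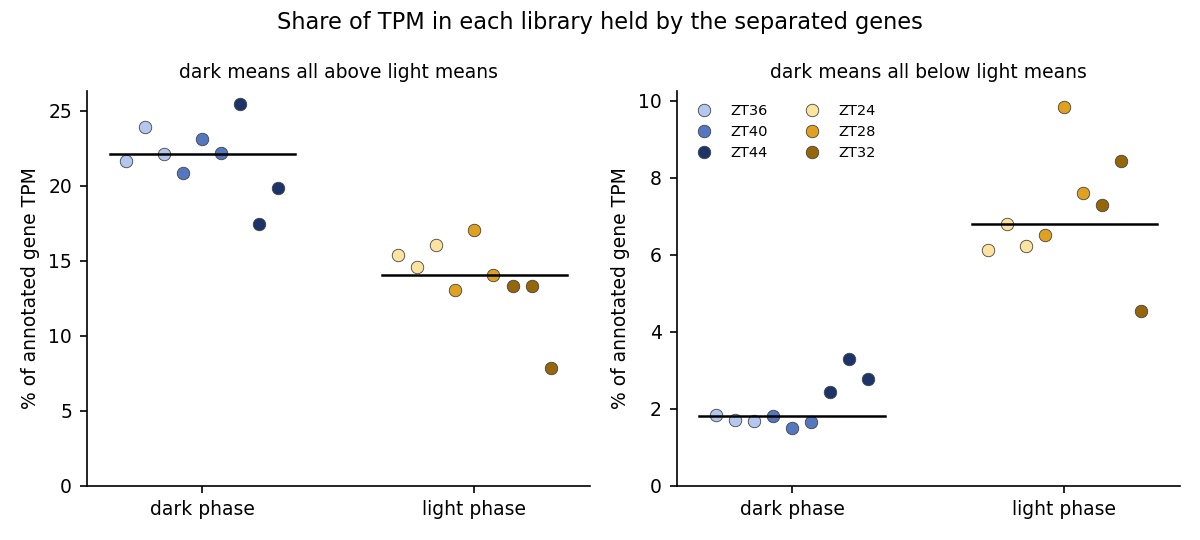
Share of the annotated gene TPM (y axis, %) held by the genes with all dark means above (left) and below the light means (right), 1 point per library, coloured by time point, with the median of the 9 libraries as a line. The dark-phase libraries lie at 17.5% to 25.5% on the left and at 1.49% to 3.28% on the right.

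The share of genes called in each direction varied with the mean level over all libraries, and not in a single direction. Below 1 TPM, 42.1% of 4372 genes were higher and 13.5% lower in the dark phase, and between 1 and 5 TPM 56.9% of 13458 genes were higher and 7.53% lower. The genes below 1 TPM passed the filter only through a time point where they were higher than their mean. Their shares are therefore shaped by the filter. The shares were 57.9% higher and 12.6% lower between 5 and 20 TPM, and 45.1% and 19.6% between 20 and 100 TPM. Of 337 genes with at least 100 TPM, 78 were higher (23.1%) and 129 lower (38.3%), and without ZT32 R 21.8% and 40.2% of 348 genes. With quantile normalization the shares became 36.5% higher and 32.3% lower for the genes above 100 TPM, and 25.8% and 20.1% for those between 1 and 5 TPM. Below 1 TPM the balance turned with quantile normalization, to 16.7% higher and 22.4% lower. At every other level more genes were then higher than lower. Genes called lower also spanned less of the genome, with a median of 2836 bp, against 4305 bp for genes called higher and 3904 bp for all tested genes (3065, 4288 and 3915 bp without ZT32 R).

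Calls were spread over all chromosomes of Gmax_Wm82_a2_v1, the assembly of the files. The share called lower ranged from 9.40% on chromosome 5 to 12.3% on chromosome 12, and the share called higher from 50.7% on chromosome 12 to 56.1% on chromosome 7. Neighbouring genes were compared without a test. The next tested gene was also lower for 15.6% of the 2633 lower genes, beside 10.7% of all tested genes, and also higher for 56.7% of the higher genes, beside 53.4%. Without ZT32 R, these were 18.0% beside 12.8%, and 53.4% beside 50.2%, and the chromosomes ranged from 11.6% to 15.5% lower and from 47.4% to 53.3% higher. The longest runs of lower genes held 5 genes, and 5 such runs were found, while without ZT32 R the longest held 8 genes. The most abundant, on chromosome 19 (7189031 to 7345059), summed to 3260 to 10092 TPM in the dark phase (median 6789), against 3604 to 18488 TPM in the light phase (median 12456), so that the libraries overlapped. Another, on chromosome 8 (42174238 to 42262441), summed to 134 to 348 TPM in the dark phase (median 187), against 243 to 619 TPM in the light phase (median 513), and its genes had differences from -2.08 to -0.59. The longest run of higher genes held 18 genes (15 without ZT32 R), on chromosome 8 (14851649 to 15103757), with a summed level of 57.0 to 90.6 TPM in the dark phase (median 73.5), against 15.0 to 56.1 TPM in the light phase (median 36.6). Neighbouring copies that share reads could be counted in part for each other.

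Of the 14 clock and light-related genes that the paper pairs with identifiers, 8 were lower and 5 higher in the dark phase, beside 10.7% and 53.4% of all genes. The study chose these genes with the same libraries in hand, so their counts are a description. All 14 differed over the 6 time points in limma's moderated F-test, as did 76.3% of all genes. The 3 dark means were all below the light means in 2 of them and all above in 2, beside 4.01% and 31.8% of all genes. With time-point means as units, *GmPRR5d* was the only one called, as lower, beside 0.548% of all genes lower and 1.79% higher. Relative to the median gene, the differences were -3.61 for *GmPRR5d*, -3.09 for *GmCAB2-7*, 2.88 for *GmRVE2d*, 0.81 for *GmLUX2*, 0.52 for *GmTOC1c* and 0.40 for *GmCOR28b*. With quantile normalization, *GmPRR5d* had -3.51 and *GmCAB2-7* -2.62, beside -3.26 and -2.74 as fitted.

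*GmPRR5d* (Glyma.07G049400, chromosome 7, 4201368 to 4206174), a pseudo-response regulator whose Arabidopsis relative represses morning genes, separated the phases most clearly among the clock genes. It had 0.287 to 6.96 TPM in the 9 dark-phase libraries (median 0.808), against 6.73 to 55.7 TPM in the 9 light-phase libraries (median 23.8). Of the dark-phase libraries, 8 lay below every light-phase library, and only ZT44 L, at 6.96 TPM, exceeded the lowest of them, ZT32 R at 6.73 TPM. The difference was -3.26 ± 0.18 (SE, adjusted p = 1.9e-14), and the nearest means were 1.29 apart. With time-point means as units its adjusted p was 0.032.

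*GmCAB2-7* (Glyma.16G016100, chromosome 16, 1404906 to 1407307), a light-harvesting gene, was the other gene with all dark means below. It had 27.9 to 183 TPM in the dark phase (median 55.8), against 159 to 826 TPM in the light phase (median 516), a difference of -2.74 ± 0.21 (SE, adjusted p = 1.6e-11). The libraries of both phases overlapped only through ZT44, at 176 to 183 TPM, and ZT32 R, at 159 TPM. With time-point means as units its adjusted p was 0.057. The profile was not flat within the dark phase, as the mean was 57.6 TPM at ZT36, 30.9 TPM at ZT40 and 180 TPM at ZT44.

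*GmPIF4* (Glyma.08G303900, chromosome 8, 42217649 to 42223362), a bHLH factor that in Arabidopsis promotes growth, had 0.684 to 10.3 TPM in the dark phase (median 2.13), against 3.46 to 15.8 TPM in the light phase (median 9.98). It was lower by 1.35 ± 0.16 (SE, adjusted p = 6.2e-08), yet its mean at ZT44, 9.50 TPM, was above its mean at ZT32, 6.13 TPM. The gene lies within the run of lower genes on chromosome 8.

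The 4 LHY paralogs, dawn MYB factors, straddled the border of the phases. *GmLHY1a* (Glyma.16G017400, chromosome 16, 1526133 to 1539596) had 1.94 to 164 TPM in the dark phase (median 14.9), against 5.45 to 228 TPM in the light phase (median 74.9). Its mean was 212 TPM at ZT24, 12.5 TPM at ZT32, 2.01 TPM at ZT36 and 144 TPM at ZT44, so both phases held high and low values. The differences were -1.61 ± 0.20 for *GmLHY1a*, -1.14 ± 0.18 for *GmLHY1b* (Glyma.07G048500), -1.11 ± 0.19 for *GmLHY2a* (Glyma.19G260900) and -0.90 ± 0.18 for *GmLHY2b* (Glyma.03G261800), all with an adjusted p of 1.1e-04 or less. They were far smaller than the ranges over time, which reached 6.14 for *GmLHY1a* and 6.81 for *GmLHY2b*, and with time-point means as units the adjusted p lay between 0.42 and 0.73. Without ZT44, the differences became -3.06, -2.38, -2.62 and -2.84 in the same order, and with ZT32 counted as dark they were -2.89, -2.30, -2.59 and -2.96. Reads of such close paralogs may have been divided between them.

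*GmPRR5b* (Glyma.04G228300), also a pseudo-response regulator, was lower in the dark phase by 1.05 ± 0.16 (SE, adjusted p = 2.6e-06). This rested on ZT32, where its mean was 10.6 TPM, against 0.248 TPM at ZT24 and 1.58 TPM at ZT28 and 0.126 to 1.86 TPM at the dark time points. Without ZT32 the difference was -0.19 (adjusted p = 0.18), and with ZT32 counted as dark it was 0.50 (adjusted p = 0.020). In the short day ZT32 lies at lights-off, on the border.

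Among those of the 14 genes that were higher in the dark phase, *GmRVE2d* (Glyma.18G044200, chromosome 18, 3813589 to 3817289), an LHY-related MYB factor, changed most. It had 8.78 to 48.9 TPM in the dark phase (median 30.3), against 0.153 to 11.3 TPM in the light phase (median 0.539), and its difference was 3.23 ± 0.14 (SE, adjusted p = 1.6e-16). The lowest dark mean was just above the highest light mean, by 0.02, because ZT24 averaged 10.6 TPM and ZT36 10.9 TPM. The 9 libraries of each phase overlapped, and 7 dark-phase libraries lay above all light-phase libraries. With time-point means as units its adjusted p was 0.070, and with ZT32 counted as dark the difference was 1.64.

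*GmTOC1c* (Glyma.06G196200), a relative of the evening factor TOC1, had 0.540 to 2.81 TPM in the dark phase (median 1.21), against 0.0331 to 1.21 TPM in the light phase (median 0.172), and rose by 0.87 ± 0.11 (SE, adjusted p = 1.1e-07). Its means were only 0.05 apart. *GmCOR28b* (Glyma.07G213000), related to an Arabidopsis cold-regulated clock component, rose by 0.74 ± 0.10 (SE, adjusted p = 4.3e-07) but fell just outside the separated genes, its lowest dark mean lying 0.21 below its highest light mean. These are low levels, at which log2(TPM + 1) understates a change. Both genes passed the filter only through ZT36 and ZT40, time points of the phase where they were higher. Their p-values are therefore a description and not a support. With time-point means as units the adjusted p was 0.10 for *GmTOC1c* and 0.15 for *GmCOR28b*.

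Of the 2 LUX genes of the evening complex, 1 was called. *GmLUX2* (Glyma.11G136600) had 1.16 to 14.1 TPM in the dark phase (median 3.04), against 0.550 to 2.59 TPM in the light phase (median 1.08), a difference of 1.15 ± 0.13 (SE, adjusted p = 3.3e-08) that came mostly from ZT36, at 10.8 TPM. *GmLUX1* (Glyma.12G060200) had 0.00 to 1.94 TPM in the dark phase (median 0.322), against 0.0320 to 1.37 TPM in the light phase (median 0.168), and was not called (0.15 ± 0.11, adjusted p = 0.24). The difference between the genes was not tested. *GmLUX1* was highest at ZT36 (1.50 TPM) and at ZT32 (1.02 TPM), on either side of the border, and it was called higher without ZT44 (0.43, adjusted p = 0.0058), without ZT32 (0.43, adjusted p = 0.0029) and with ZT32 counted as dark (0.54, adjusted p = 7.6e-04). *GmCRY1-like* (Glyma.14G174200), named for a blue-light receptor, had 7.13 to 45.0 TPM in the dark phase (median 23.9), against 2.40 to 24.3 TPM in the light phase (median 14.8). Its difference of 0.63 ± 0.18 (SE, adjusted p = 0.0047) was 0.28 above the median of all genes, and with quantile normalization it was 0.27 (adjusted p = 0.067). Without ZT32 the difference was 0.08 (adjusted p = 0.68), without ZT44 0.28 (adjusted p = 0.24), and with ZT32 counted as dark -0.35 (adjusted p = 0.17).

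**Figure D4:**
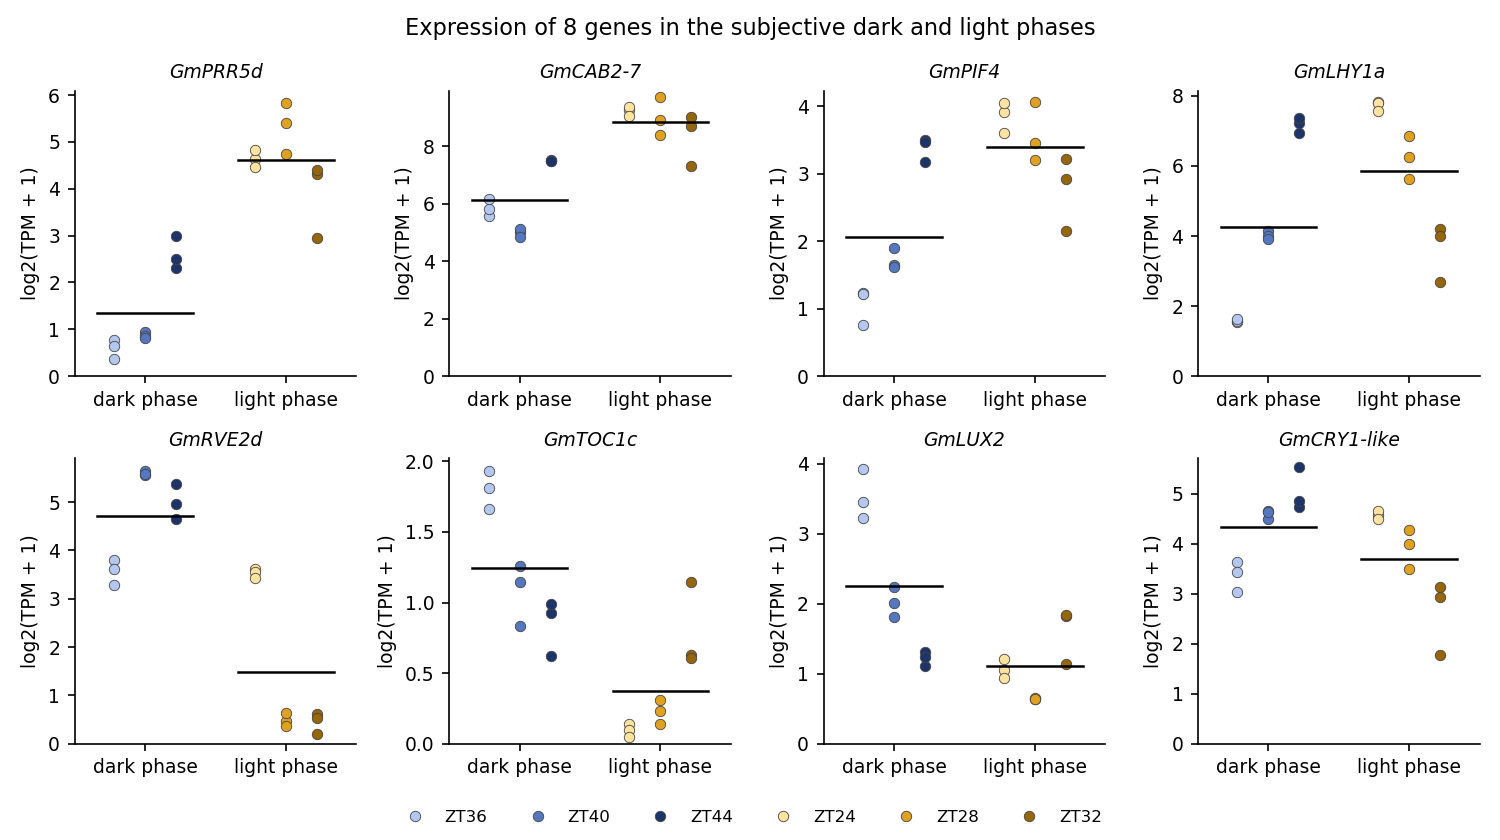
Expression of 8 genes (y axis, log2(TPM + 1)) in the 9 libraries of the dark phase (left in each panel) and the 9 of the light phase (right), coloured by time point, with the mean of each phase as a line. *GmPRR5d* and *GmCAB2-7* nearly separate the phases, whereas the ZT44 values of *GmLHY1a* and *GmPIF4* reach into the range of the light phase.

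The genes with the largest differences among those whose 9 libraries did not overlap are given by identifier, as the files do not pair them with names. Glyma.05G128000 (chromosome 5, 32149719 to 32150849) had 28 to 215 TPM in the dark phase (median 36.5), against 1305 to 6628 TPM in the light phase (median 2790), and was lower by 5.55 ± 0.21 (SE). Glyma.17G212200 (chromosome 17, 35064075 to 35065120) had 0.735 to 8.31 TPM in the dark phase (median 2.33), against 85.5 to 286 TPM in the light phase (median 200), and was lower by 5.45 ± 0.21. Glyma.05G128000 was lowest at ZT40, at a mean of 31.5 TPM, and Glyma.17G212200 at ZT36, at 1.45 TPM, and both had their highest dark mean at ZT44, at 177 TPM and 6.13 TPM.

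On the higher side, Glyma.07G014500 (chromosome 7, 1145046 to 1146554) had 259.6 to 1109 TPM in the dark phase (median 614), against 17.7 to 119 TPM in the light phase (median 46.9), a difference of 3.69 ± 0.29 (SE). Glyma.07G032900 (chromosome 7, 2576112 to 2576896) had 7.28 to 91.8 TPM in the dark phase (median 43.4), against 0.521 to 6.82 TPM in the light phase (median 1.58), a difference of 3.67 ± 0.19. Its mean was 85.4 TPM at ZT36 and 12.3 TPM at ZT44. These 4 genes were chosen by the same values, so their differences are a description.

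**Figure D5:**
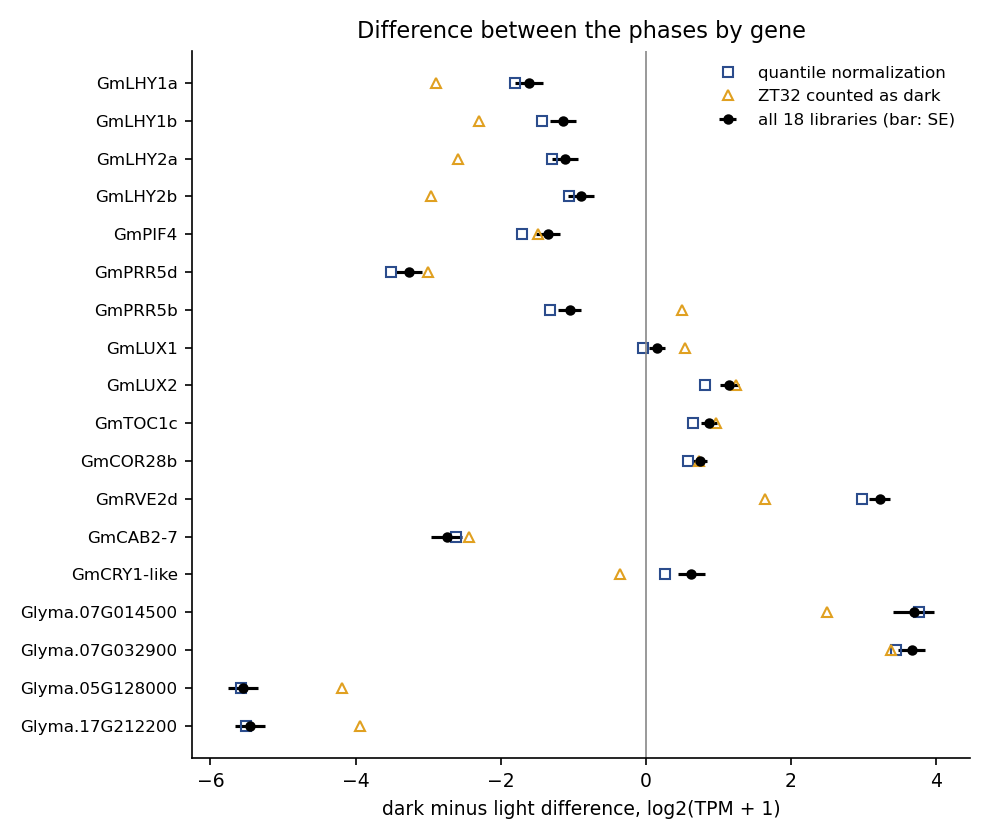
Dark minus light difference of 18 genes in log2(TPM + 1) (x axis), with all 18 libraries (filled points, bars are the SE), with quantile normalization (squares) and with ZT32 counted as dark (triangles). *GmPRR5b* and *GmCRY1-like* change sign when ZT32 is counted as dark, and *GmLUX1* with quantile normalization.

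Some genes changed over the day without being called between the phases. Of the 18774 genes past the F-test, 14552 (77.5%) were also past the contrast and 4222 were not, which does not show that their phases were equal. Their difference had a median size of 0.18, being positive in 2625 and negative in 1597. Their median range over time was 1.07, beside 1.15 for the genes called higher, 1.62 for those called lower and 1.04 for all tested genes. In the same order, these ranges were 0.98, 1.07, 1.58 and 0.97 without ZT32 R. *GmLUX1* was one of the genes past the F-test but not the contrast. They were highest at ZT24 in 24.3%, beside 11.3% of all tested genes, and without ZT32 R in 19.9% of 4381 such genes, beside 10.7%.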

How the data were processed

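RNA-seq of 18 libraries, 9 of the subjective dark and 9 of the subjective light phase, was analysed. After trimming with *Trimmomatic*, the authors mapped the reads with *HISAT2* 2.2.1 to Gmax_Wm82_a2_v1 and estimated the abundance of annotated genes and assembled loci in *StringTie*, whose version is not given in the sources used here. The deposited tables give coverage, FPKM and TPM, with no read counts. TPM was used as deposited by the authors, FPKM as deposited was an alternative unit, and the aligned sequence of a library was computed from coverage and FPKM. No interval for counting error can be given. In 11 libraries a gene stood on 2 lines, which were summed.

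Genes with a mean of at least 1 TPM at any time point were fitted as log2(TPM + 1) by limma 3.58.1 under R 4.3.3, with 6 time-point terms and a mean-variance trend in eBayes, and the mean of the dark minus the mean of the light time points was tested with Benjamini-Hochberg adjustment at 0.05. Fold changes on this scale are understated for low genes. On simulated data for 24620 genes, the contrast found 96% of 200 genes changed by 1 on the log2 scale, with 4.48% false calls. The simulated libraries had independent noise and no shift between libraries, and few genes changed. The 4.48% is therefore not an estimate of false calls in the real libraries. Tables were made with pandas 2.3.3 and numpy 2.4.6 in Python 3.11.15, and figures with matplotlib 3.10.9.

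The genes named are 14 that the paper pairs with identifiers, and the first 2 in each direction by size of difference among called genes whose 9 dark and 9 light libraries do not overlap. Members, lists and tests were chosen with earlier results of these data known. The reference table of 59048 genes holds 0 of the 55589 identifiers, so planned gene lists, cell type markers, promoter motifs and sequences were not used. Replicate letters did not pair the libraries. Quantile normalization with ZT32 R left out, and the descriptions without ZT32 R, were added after seeing the data.

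Alternatives were another pseudocount (0.1), a 5 TPM or no filter, quantile normalization, 2 rescalings of the TPM, FPKM, no trend, a replicate block, single libraries, ZT32 or ZT44 left out, ZT32 counted as dark, and time-point means or the libraries of a phase as units.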

Additional observations from a re-analysis of the deposited data

Results flagged for a closer look

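In the light phase, ZT32 R lay far from the other 8 libraries in 2 measures. It listed 227701 assembled loci without a strand, and its annotated genes summed to 51.3% of the TPM held by its assembled loci. In the dark phase, ZT36 L lay far from the other 8 with 35008 loci without a strand. These were 3 of 46 groups of 9 libraries examined, and chance marks about 1 in 20. None of the 18 named genes had a library this far from the others.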

How the results depend on the processing

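Counts are given as higher and lower, then as means apart above and below. They were 6703, 5510, 3767 and 2560 with quantile normalization, 7072, 5862, 3933 and 2644 when ZT32 R was also left out, and 5865, 1461, 3235 and 484 with a filter of 5 TPM, which tests fewer genes and leaves 8911 past the F-test. Without the 100 most abundant genes, 4405 were lower and 2516 apart below, and without a filter 2467 were apart below. Both settings test another set of genes. Without ZT44, 13159 were apart above, and without ZT32, 1758 apart below, where fewer means must be apart. With ZT32 counted as dark, 6158 were higher and 1950 apart above. With time-point means as units, 440 were higher and 135 lower, and with the libraries of a phase as units 1609 were lower. A difference of at least 1 left 1974 and 683, and 996 and 192 had all 9 libraries apart. Leaving out 1 library gave 11776 to 14217 higher, 2365 to 3144 lower, 6670 to 8899 apart above, 839 to 1231 apart below and 17445 to 19568 past the F-test. Called in the same direction in all 18 such fits were 11058 higher and 2124 lower genes, and in the fits with quantile normalization, without ZT32 R, without ZT44, without ZT32 and with ZT32 counted as dark 4235 and 1688.

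The 18 named genes gave 590 differences under the alternatives, of which 559 kept direction and call, 23 kept the direction but lost the call and 4 gained it. The 4 that reversed were *GmPRR5b* (0.50) and *GmCRY1-like* (-0.35) with ZT32 counted as dark, and *GmLUX1* with quantile normalization (-0.035) and with ZT32 R also left out (-0.058). The cause was not tested. With a replicate block, 13304 genes were higher and 2686 lower. Deviations of libraries with the same letter correlated with a median r of -0.01, and 8 of 18 libraries correlated best with their own letter. Low TPM at ZT44 rests on the fewest reads.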
